A study of Mus musculus with 16 samples.

Results

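Igf1 and the IGF binding protein genes Igfbp2, Igfbp3, Igfbp4, Igfbp5, Igfbp6 and Igfbp7 were followed through RNA-seq libraries of sorted mouse muscle cells. The 7 genes were chosen by name and taken as the rows of those symbols, out of 24341 genes listed in each library. Igfbp1, a binding protein made mostly by the liver, and Igfbpl1, a related protein, are listed at 0 in all 16 libraries and are no members. The study compared 6 groups of freshly sorted cells in a work on muscle stem cells, rhabdomyosarcoma and Duchenne muscular dystrophy. There were 3 libraries each of p53WT, p53KO, p53WT_3dai and p53KO_3dai, and 2 each of p53WT_G2 and p53KO_G2. All mice were C57BL/6 and 2 to 3 months old, with a p53 WT or p53 KO genotype. What 3dai and G2 stand for is left unexplained in the labels, and no group has a Dmd genotype or an agent in its labels. Cells without a suffix and G2 cells came from hind limb muscles, and 3dai cells from the Tibialis Anterior, so that a difference between 3dai and either of them is also a difference of muscle. The sort kept cells with CD34 and alpha-7 integrin on their surface and dropped those with CD31, CD11b, CD45 or Sca-1. Which cells lost p53, and whether replicates are separate animals, is not stated, so every p below measures only the spread between these libraries.

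Insulin-like growth factor 1, the product of Igf1, is a secreted hormone that binds the receptor Igf1r and drives growth through the kinases PI3K, Akt and mTOR. In skeletal muscle it promotes proliferation and differentiation of myoblasts and growth of fibres. The IGF binding proteins are secreted proteins that hold IGF1 and IGF2 outside the cell, carry them, keep them from the receptor or release them when a protease cuts the binding protein. Igfbp7 binds IGFs only weakly and is often classed as a related protein.

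Igfbp2 and Igfbp5 are neighbours. In the coordinates of the deposited files (mm10) Igfbp2 lies at chr1:72824480-72852471 and Igfbp5 at chr1:72858065-72874865, with 5593 bases between them. Igfbp2 is on the plus strand and Igfbp5 on the minus strand, so their ends face each other. Igfbp3 lies at chr11:7206091-7213923, 3544 bases from Igfbp1, and Igfbp4 is far away on the same chromosome at chr11:99041260-99052643. Igfbp6 is at chr15:102144186-102149512 and Igf1 at chr10:87859056-87937047. The files give Igfbp7 the locus chr5:77310484-77408045, which also takes in Polr2b. In GENCODE M21 Igfbp7 itself spans chr5:77349240-77408041 on the minus strand, and its end overlaps that of Polr2b on the other strand. Coding transcripts of Igfbp2, Igfbp4, Igfbp5 and Igfbp6 have 4 exons there, while those of Igf1 and Igfbp3 have 4 to 5 and those of Igfbp7 5 to 6. The antisense gene Igf1os overlaps Igf1. No source used here states whether the quantification used strand, so reads of Igf1 and Igf1os, and those in the overlap of Igfbp7 and Polr2b, cannot be told apart.

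The promoters of 2 genes that were higher in 3dai cells, Igfbp2 and Igfbp3, and of 2 that were lower, Igfbp4 and Igfbp7, are shown for that contrast, as RefSeq gives them in GRCm38.p6. Each window is 300 bases read 5′ to 3′ along the gene, across the annotated start. Capitals mark CANNTG, the E-box letters, of which myogenic factors such as MyoD recognise some forms, and TATAAA, the TATA box, each on either strand. The windows are chr1:72824230-72824529 (plus strand) for Igfbp2, chr11:7213874-7214173 (minus) for Igfbp3, chr11:99040994-99041293 (plus) for Igfbp4 and chr5:77407996-77408295 (minus) for Igfbp7.
Igfbp2: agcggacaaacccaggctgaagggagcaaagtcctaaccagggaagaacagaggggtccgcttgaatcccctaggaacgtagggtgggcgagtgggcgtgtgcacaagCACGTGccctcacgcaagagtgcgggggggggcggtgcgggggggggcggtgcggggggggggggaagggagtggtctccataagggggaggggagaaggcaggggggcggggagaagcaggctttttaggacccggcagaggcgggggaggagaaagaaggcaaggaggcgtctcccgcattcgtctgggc
Igfbp3: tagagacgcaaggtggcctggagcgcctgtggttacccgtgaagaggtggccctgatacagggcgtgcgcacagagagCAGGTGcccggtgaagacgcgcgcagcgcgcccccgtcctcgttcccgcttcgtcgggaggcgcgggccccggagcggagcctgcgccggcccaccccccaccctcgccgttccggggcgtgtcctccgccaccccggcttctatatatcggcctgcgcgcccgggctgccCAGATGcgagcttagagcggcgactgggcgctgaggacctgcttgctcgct
Igfbp4: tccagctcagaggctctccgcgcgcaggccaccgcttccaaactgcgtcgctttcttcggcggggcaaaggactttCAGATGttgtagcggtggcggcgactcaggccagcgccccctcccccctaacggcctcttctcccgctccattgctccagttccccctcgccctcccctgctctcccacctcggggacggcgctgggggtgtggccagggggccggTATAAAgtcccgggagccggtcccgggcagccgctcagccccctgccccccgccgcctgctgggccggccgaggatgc
Igfbp7: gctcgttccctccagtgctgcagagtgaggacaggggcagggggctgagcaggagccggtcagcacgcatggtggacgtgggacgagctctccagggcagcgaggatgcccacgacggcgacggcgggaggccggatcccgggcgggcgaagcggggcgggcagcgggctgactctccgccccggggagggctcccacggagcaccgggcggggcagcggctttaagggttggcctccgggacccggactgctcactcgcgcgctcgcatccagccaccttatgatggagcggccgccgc
Igfbp2 has 1 CANNTG in this window, Igfbp3 has 2, Igfbp4 has 1 beside a TATAAA, and Igfbp7 has 0 of either. CANNTG occurs in 72.3% of the 32851 RefSeq promoter windows of this length and TATAAA in 13.6%. The GC box letters GGGCGG, present in 35.7% of windows, occur 3 times in the Igfbp2 window and 4 times in that of Igfbp7, and in none of the windows of Igf1, Igfbp3, Igfbp4, Igfbp5 and Igfbp6. The p53 half-site, present in 8.36% of windows, was found in 0 of the windows of the 7 genes, a second Igfbp2 window included. The 4 motifs were searched on both strands, and matches of different motifs may share letters. A match is a description of these letters and shows no binding.

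Values are the authors' FPKM, fragments scaled to transcript length and to library size. Levels of different genes can therefore be set side by side. Depth is unknown from the files. FPKM summed to between 423303 and 616485 per library, and correlations between libraries of a group lay between 0.957 and 0.981. Differences are in log2(FPKM + 1), and those of genes with few FPKM come out too small on that scale. A gene was called where limma's adjusted p (Benjamini-Hochberg over 12954 tested genes) was below 0.05. All 7 members passed the filter of 1 FPKM in 2 libraries, but Igfbp2 did so only through its 3dai and G2 libraries. Igf1 did so through its G2 libraries and those without a suffix. Of its 3dai libraries only p53KO_3dai replicate 2 (2.34 FPKM) reached 1 FPKM. Both genes thus entered the tests through groups where they are higher, and they count among the called members below. Cd34 (27.1 to 140.3 FPKM) and Itga7 (81.1 to 317 FPKM) were high in every library, and Pecam1, Itgam, Ptprc and Ly6a, the genes of the markers sorted against, stayed at or below 6.60 FPKM. Trp53, the targeted gene, was at 39.9, 53.9 and 48.1 FPKM in p53WT and at 6.34, 12.2 and 7.17 FPKM in p53KO. It was at 134, 135 and 161 FPKM in p53WT_3dai against 41.3, 45.7 and 34.9 FPKM in p53KO_3dai, and at 71.0 and 59.9 FPKM in p53WT_G2 against 16.7 and 19.8 FPKM in p53KO_G2. Every p53KO library was thus below every p53WT library of its suffix, with transcript left in all of them. Exact zeros can be failed estimates in such files, and a gene is therefore said to be listed at 0.

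**Figure D1:**
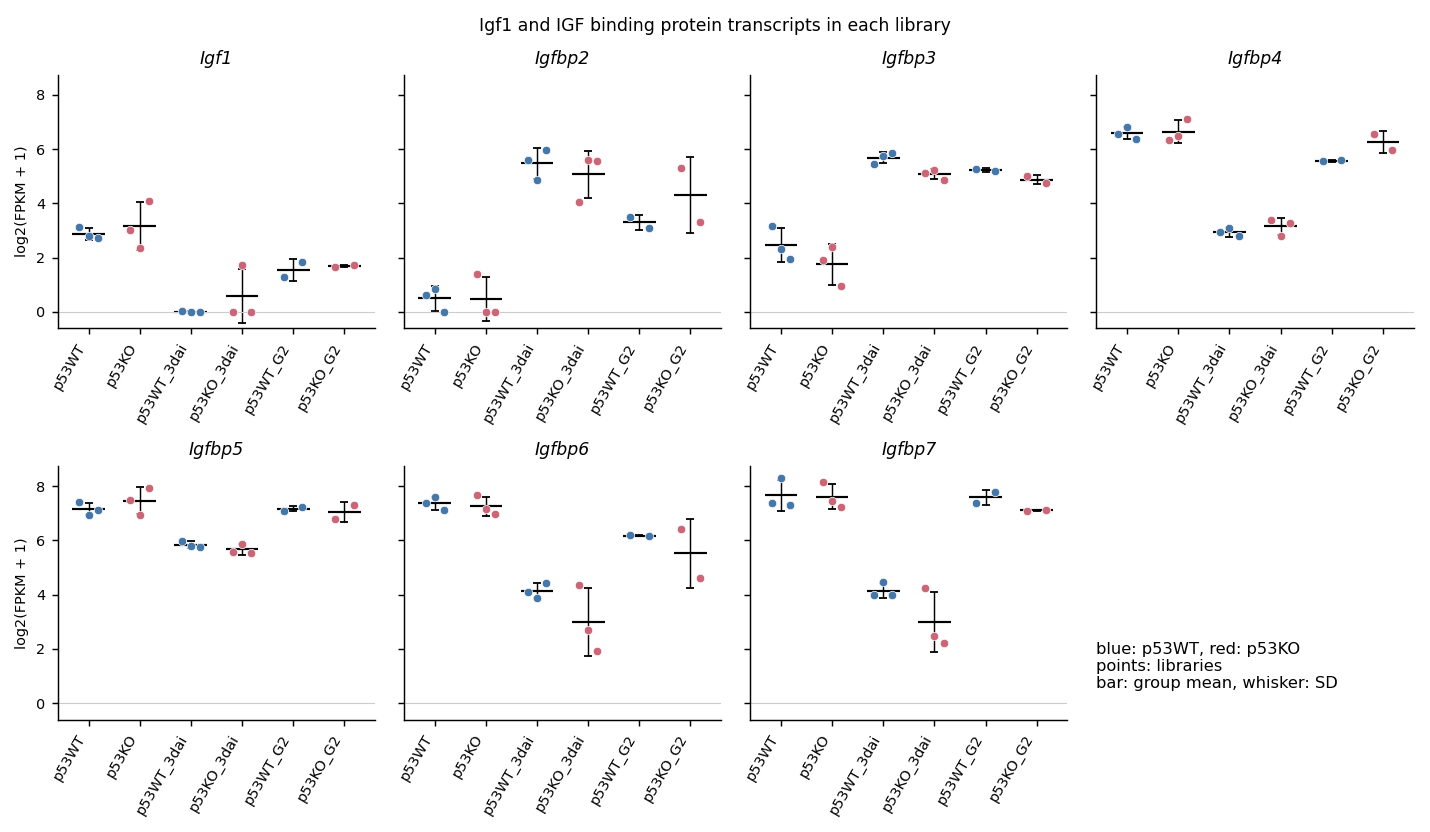
Level of each gene as log2(FPKM + 1) in the 6 groups. Points are libraries (blue p53WT, red p53KO), bars are group means and whiskers are SD. Igf1, Igfbp4, Igfbp5, Igfbp6 and Igfbp7 are lowest in the 3dai groups, where Igfbp2 and Igfbp3 are high.

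Cells without a suffix held mostly Igfbp7, Igfbp6, Igfbp5 and Igfbp4 transcript. In p53WT these stood at 212 ± 90.3, 165 ± 27.1, 143 ± 23.6 and 96.3 ± 15.2 FPKM (SD, n = 3). Igf1 stood at 6.41 ± 1.17 and Igfbp3 at 4.91 ± 2.66 FPKM. Igfbp2 was at 0.550, 0.818 and 0 FPKM. Neighbours in this order were separated in every library only for Igfbp5 over Igfbp4, Igfbp4 over Igf1 and Igfbp3 over Igfbp2, whereas Igfbp7, Igfbp6 and Igfbp5 changed places between libraries. The order of means in p53KO was alike from Igfbp4 down, with Igfbp7 at 202 ± 69.7, Igfbp5 at 182 ± 61.1 and Igfbp6 at 156 ± 40.3 FPKM (SD, n = 3) in no fixed order. In p53KO replicate 3 Igfbp4 (137 FPKM) lay above Igfbp6 (125 FPKM).

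In 3dai cells the order was another one. Igfbp5 (56.7 ± 4.91 FPKM), Igfbp3 (50.8 ± 7.36) and Igfbp2 (45.7 ± 16.8) led in p53WT_3dai (SD, n = 3), without a fixed order among themselves. All 3 lay above Igfbp7 (17.0 ± 3.46) and Igfbp6 (16.9 ± 3.52) in every library, and Igfbp4 followed at 6.71 ± 0.870 FPKM. In p53KO_3dai the same 3 genes had the highest means, at 50.1 ± 7.00 (Igfbp5), 36.3 ± 17.9 (Igfbp2) and 33.0 ± 4.37 (Igfbp3) FPKM, but in its replicate 1 Igfbp2 (15.6 FPKM) lay below Igfbp6 (19.6 FPKM) and Igfbp7 (18.2 FPKM). In p53WT_G2 every neighbour in the order Igfbp7, Igfbp5, Igfbp6, Igfbp4, Igfbp3, Igfbp2 and Igf1 was separated in both libraries, from 192 ± 35.8 FPKM at the top to 2.00 ± 0.827 FPKM for Igf1 (SD, n = 2). In p53KO_G2 only Igfbp5 over Igfbp4, Igfbp4 over Igfbp6 and Igfbp2 over Igf1 kept their order in both libraries.

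The 6 binding proteins together reached 622 ± 117 FPKM in p53WT and 644 ± 109 in p53KO, 194 ± 18.5 in p53WT_3dai and 146 ± 12.3 in p53KO_3dai (SD, n = 3), and 498 ± 41.3 in p53WT_G2 and 454 ± 54.0 in p53KO_G2 (SD, n = 2). Igfbp2 and Igfbp3 made up 0.550% to 1.41% of that sum in p53WT and 0.140% to 0.815% in p53KO. Their share was 45.5% to 55.4% in p53WT_3dai and 34.2% to 55.1% in p53KO_3dai. It was 8.13% to 10.3% in p53WT_G2 and 8.42% to 14.1% in p53KO_G2. Igfbp4, Igfbp6 and Igfbp7 together made up 70.4% to 83.0% in p53WT and 19.5% to 24.0% in p53WT_3dai. Igfbp5 kept a share of 16.4% to 37.7% in the 16 libraries, and no group stood wholly apart in it.

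**Figure D2:**
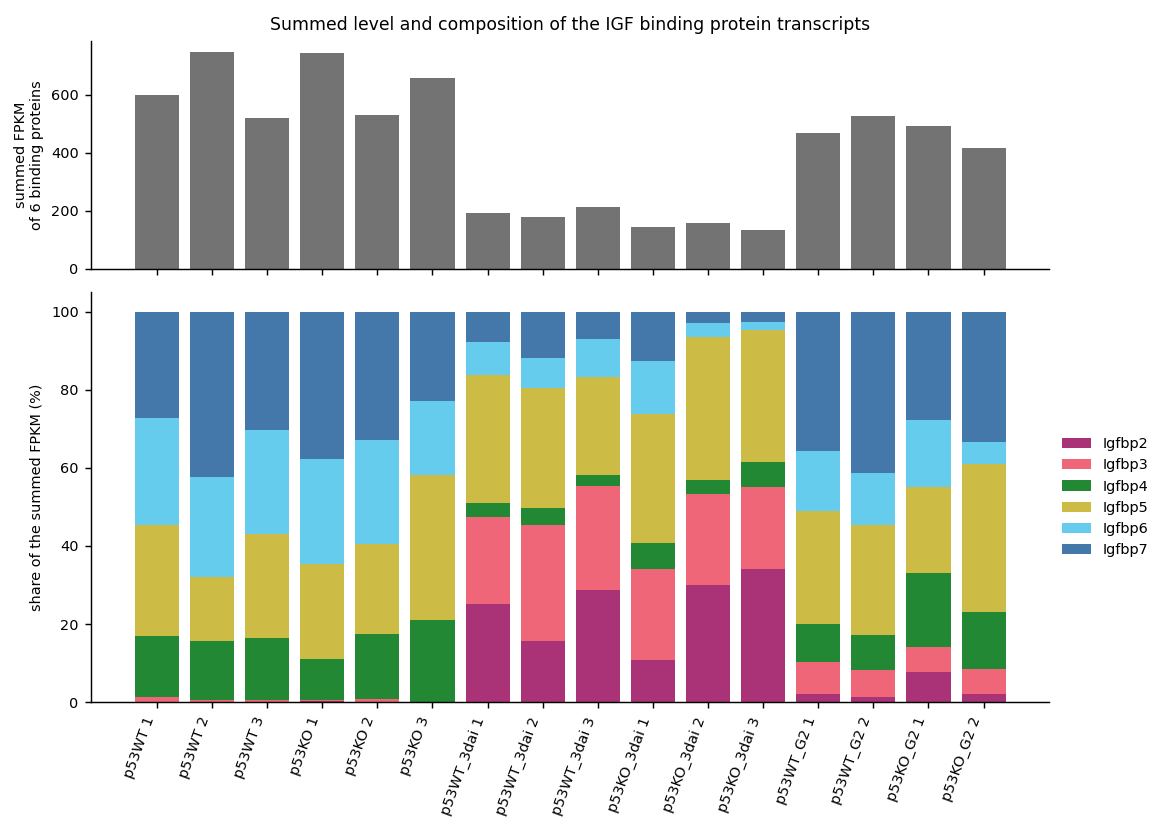
Upper panel, summed FPKM of the 6 binding proteins per library; lower panel, the share of each in that sum (%). The sum lies between 134 and 214 FPKM in the 3dai libraries and above 400 in all others, and Igfbp2 with Igfbp3 takes 34.2% to 55.4% of it in 3dai against at most 1.41% without a suffix.

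How do the transcripts differ between 3dai cells and cells without a suffix? Igfbp2 and Igfbp3 were higher in 3dai cells of both genotypes, and Igf1, Igfbp4, Igfbp5, Igfbp6 and Igfbp7 were lower. In p53WT all 7 were called, 2 higher and 5 lower, where 52.7% of all tested genes were called (31.8% higher and 20.9% lower). In p53KO all 7 were again called in the same directions, where 53.1% of genes were called (30.4% higher, 22.7% lower). With median-of-ratios scaling the members' calls were the same, while the split of all genes turned to 23.4% higher with 27.4% lower for p53WT, and 23.3% with 28.6% for p53KO. No member overlapped between the groups in either genotype, beside 59.7% of all genes in p53WT (35.6% wholly higher and 24.1% wholly lower) and 58.7% in p53KO (33.8% and 24.9%). The median difference of the members was -2.87 in p53WT and -2.58 in p53KO, beside 0.23 and 0.14 over all tested genes.

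Igf1, the only ligand among the members, was at 7.74, 5.96 and 5.54 FPKM in p53WT and at 0.0227, 0 and 0 FPKM in p53WT_3dai. The p53KO libraries gave 7.17, 4.10 and 16.1 FPKM, and those of p53KO_3dai 0, 2.34 and 0 FPKM. Of the 6 3dai libraries 4 list Igf1 at 0 and the highest, p53KO_3dai replicate 2, stays below every library without a suffix. The log2 difference was -2.87 (SE 0.47, adjusted p = 0.000114) in p53WT and -2.58 (SE 0.47, adjusted p = 0.000288) in p53KO. All values carry the status OK in the files, and a fold against groups listed mostly at 0 is not given.

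Igfbp2, a binding protein with a preference for IGF2, was at 0.550, 0.818 and 0 FPKM in p53WT and at 47.9, 27.9 and 61.3 FPKM in p53WT_3dai. In p53KO it was at 1.66, 0 and 0 FPKM and in p53KO_3dai at 15.6, 47.5 and 45.7 FPKM. Every 3dai library lay far above every library without a suffix, and p53KO_3dai replicate 1 was the lowest of the 3dai libraries. The log2 difference was 4.98 (SE 0.55, adjusted p = 2.27e-06) in p53WT and 4.60 (SE 0.55, adjusted p = 5.07e-06) in p53KO. Since the low group is listed at 0 in 3 of 6 libraries, no fold is given.

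Igfbp3, the main IGF carrier of the blood, was at 7.91, 3.95 and 2.85 FPKM in p53WT and at 42.7, 52.6 and 57.1 FPKM in p53WT_3dai. Mean FPKM was 10.4-fold higher in 3dai (log2 difference 3.21, SE 0.34, adjusted p = 1.69e-06). In p53KO the gene was at 2.78, 4.31 and 0.918 FPKM against 33.5, 37.0 and 28.3 FPKM in p53KO_3dai. That is 12.3-fold higher (log2 difference 3.32, SE 0.34, adjusted p = 1.19e-06). The lowest 3dai library was thus over the highest one without a suffix in both genotypes.

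Igfbp4, which inhibits IGF action until the protease Pappa cuts it, was at 93.7, 113 and 82.6 FPKM in p53WT and at 6.62, 7.63 and 5.90 FPKM in p53WT_3dai. In p53KO it was at 79.1, 88.6 and 137 FPKM against 9.53, 5.87 and 8.71 FPKM in p53KO_3dai. Mean FPKM was 14.3-fold lower in p53WT_3dai (log2 difference -3.65, SE 0.24, adjusted p = 1.21e-08) and 12.6-fold lower in p53KO_3dai (log2 difference -3.49, SE 0.24, adjusted p = 1.93e-08). The highest 3dai library, p53KO_3dai replicate 1, was far below the lowest library without a suffix.

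Igfbp6, which prefers IGF2 as its ligand, was at 164, 192 and 138 FPKM in p53WT and at 16.1, 13.9 and 20.8 FPKM in p53WT_3dai. Its p53KO values were 201, 141 and 125 FPKM, and those of p53KO_3dai 19.6, 5.55 and 2.79 FPKM. The log2 difference was -3.22 (SE 0.50, adjusted p = 6.41e-05) in p53WT and -4.26 (SE 0.50, adjusted p = 4.09e-06) in p53KO. All 3dai libraries were far below those without a suffix, and among the p53KO_3dai libraries replicate 1 was the highest. Mean FPKM was 16.7-fold lower in p53KO_3dai than in p53KO, and 37.3-fold lower without that replicate.

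Igfbp7, a matrix-associated secreted protein, was at 164, 317 and 157 FPKM in p53WT and at 15.1, 21.0 and 14.9 FPKM in p53WT_3dai. Its values were 281, 174 and 151 FPKM in p53KO, and in p53KO_3dai 18.2, 4.63 and 3.68 FPKM. Mean FPKM was 12.5-fold lower in p53WT_3dai (log2 difference -3.51, SE 0.42, adjusted p = 5.93e-06) and 22.9-fold lower in p53KO_3dai (log2 difference -4.62, SE 0.42, adjusted p = 3.55e-07). Without p53KO_3dai replicate 1 the latter was 48.7-fold. Its neighbour Polr2b, a subunit of RNA polymerase II, moved the other way, from 17.6 to 22.9 FPKM without a suffix to 46.9 to 56.2 FPKM in 3dai.

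Igfbp5, a binding protein that also attaches to extracellular matrix, changed least of the 7. It was at 169, 123 and 138 FPKM in p53WT and at 62.4, 54.0 and 53.7 FPKM in p53WT_3dai. In p53KO it was at 179, 122 and 244 FPKM against 47.1, 58.1 and 45.1 FPKM in p53KO_3dai. Mean FPKM was 2.53-fold lower in p53WT_3dai (log2 difference -1.31, SE 0.23, adjusted p = 0.000184) and 3.63-fold lower in p53KO_3dai (log2 difference -1.79, SE 0.23, adjusted p = 9.74e-06). Igfbp2, its neighbour on the chromosome, was higher in the same cells.

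Marker sums of several other cell types, though not of all, were also lower in 3dai cells, and single genes went the other way. Summed FPKM of 8 pericyte and smooth muscle markers was 365 to 957 in p53WT and 24.7 to 42.0 in p53WT_3dai, with Kcnj8 at 0 in all 3 of the latter. Sums of 9 fibro-adipogenic markers were 1194 to 1378 against 198 to 213, those of 7 tenocyte markers 224 to 442 against 38.7 to 85.8, and those of 6 Schwann cell markers 369 to 445 against 35.0 to 55.2 FPKM. Scx of the tenocyte list (2.68 to 9.01 against 26.0 to 70.4 FPKM) and Ngfr of the Schwann list (2.05 to 4.53 against 29.1 to 48.8 FPKM) went the other way. Ly6a of the fibro-adipogenic list was at 0 to 2.79 FPKM in p53WT against 1.42 to 5.88 FPKM in p53WT_3dai. The sum of the 7 markers of muscle stem cells was itself lower, at 1918 to 2713 against 523 to 588 FPKM. Itga7 among these 7 was higher, at 87.3 to 92.3 FPKM in p53WT against 183 to 205 FPKM in p53WT_3dai. Cd34 is counted in the muscle stem cell list and in the fibro-adipogenic list. Sums of the pericyte, fibro-adipogenic, tenocyte and Schwann cell lists were 377 to 555, 1250.0 to 1501, 232 to 389 and 337 to 354 FPKM in p53KO. In p53KO_3dai they were 19.6 to 53.6, 216 to 256, 36.0 to 73.1 and 4.58 to 62.9 FPKM. There Scx was again higher (2.25 to 4.55 against 31.6 to 45.4 FPKM), and Ngfr was at 31.9, 4.17 and 3.21 FPKM, beside 3.50 to 5.19 FPKM in p53KO. Kcnj8, Abcc9, Tnmd and Kera were at 0 in all p53KO_3dai libraries. Muscle stem cell markers summed to 1926 to 2675 FPKM in p53KO and to 514 to 619 FPKM in p53KO_3dai, while Itga7 was at 81.1 to 89.8 against 181 to 226 FPKM. The 7 macrophage markers summed to at most 16.9 FPKM in any library, with Csf1r at 0 in all, and the 6 endothelial ones to 17.5 to 27.1 FPKM without a suffix and 0.281 to 2.72 FPKM in 3dai. Macrophage sums were lower in p53WT_3dai (5.56 to 16.9 against 0.292 to 4.79 FPKM) but overlapped in p53KO (0.508 to 11.1 against 2.02 to 8.18 FPKM). Muscle fibre sums overlapped in p53WT (18.5 to 82.6 against 20.8 to 55.4 FPKM) and were lower in p53KO_3dai (39.4 to 54.9 against 24.6 to 36.5 FPKM). Fewer cells of a type and less RNA per cell cannot be told apart in such bulk libraries, and the part of other cells in the levels of the binding proteins was not tested.

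**Figure D3:**
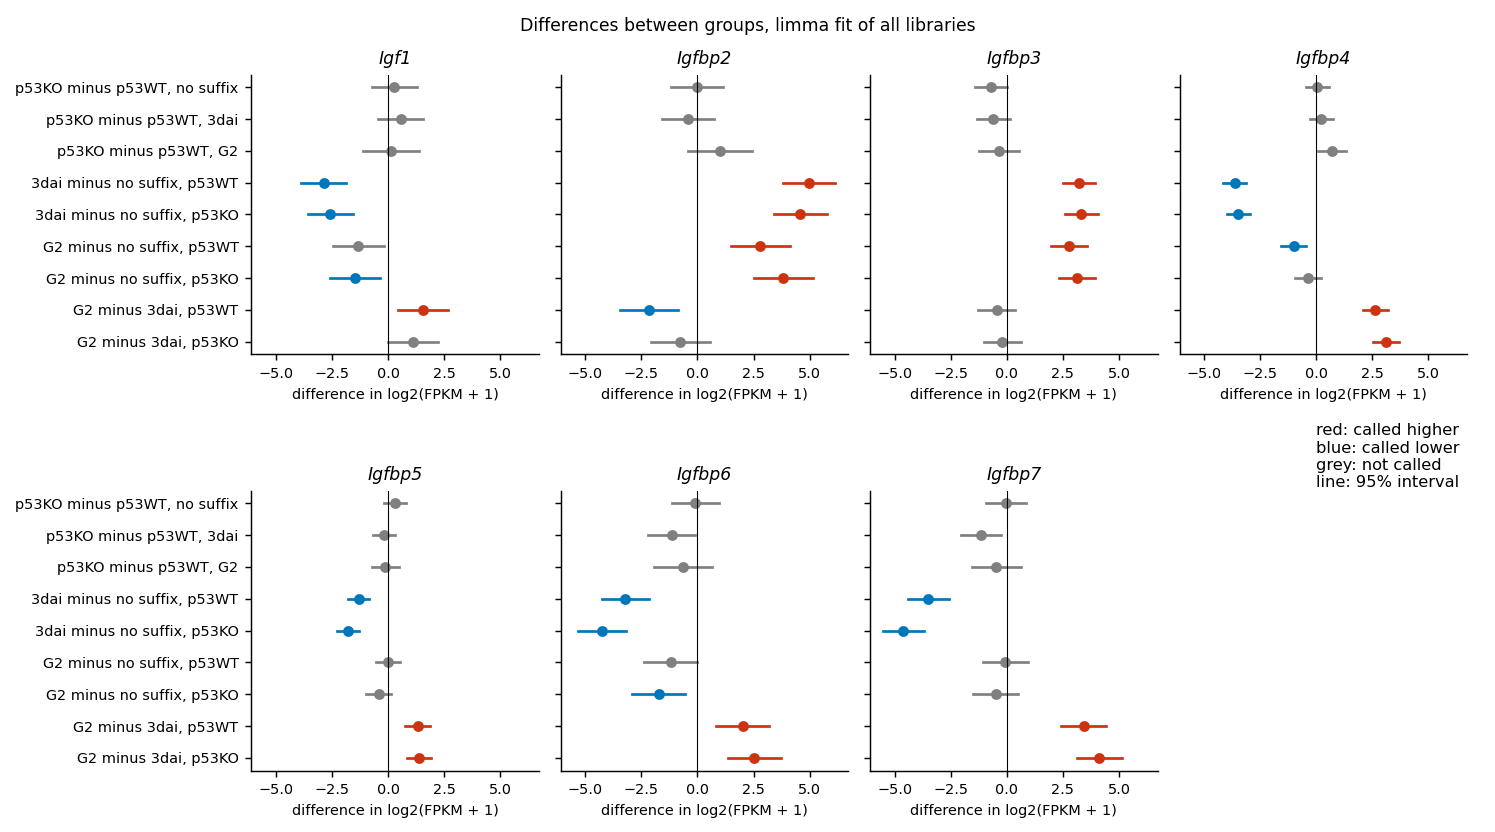
Differences in log2(FPKM + 1) for each gene in 9 comparisons, as points with 95% intervals from the limma fit of all libraries. Red marks genes called higher, blue genes called lower and grey those not called. All 7 genes are called in 3dai against no suffix in both genotypes, and none between genotypes.

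Are G2 cells different from cells without a suffix from the same source of muscle? Igfbp2 and Igfbp3 were higher in G2 cells of both genotypes. In p53WT 3 members were called, 2 higher and 1 lower (Igfbp4), where 27.5% of all genes were called (22.1% higher and 5.39% lower). In p53KO 4 were called, 2 higher and 2 lower (Igf1 and Igfbp6), where 29.6% of genes were called (22.5% higher and 7.06% lower). The groups did not overlap for 5 members in each genotype, 2 higher and 3 lower, beside 56.1% of all genes in p53WT (41.0% wholly higher and 15.1% wholly lower) and 52.1% in p53KO (37.4% and 14.7%). The median difference of the members was -0.08 in p53WT and -0.42 in p53KO, beside 0.33 and 0.31 over all genes. With median-of-ratios scaling, which moves these medians of all genes to 0.00 and -0.03, 2 members were called higher and 3 lower in p53WT, beside 12.6% and 11.8% of all genes, and 2 higher and 4 lower in p53KO, beside 12.3% and 12.7%.

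Igfbp3 was at 37.9 and 35.3 FPKM in p53WT_G2 and at 30.9 and 26.1 FPKM in p53KO_G2. Every G2 library was above every library without a suffix. Mean FPKM was 7.46-fold higher in p53WT (log2 difference 2.76, SE 0.38, adjusted p = 9.31e-05) and 10.7-fold higher in p53KO (log2 difference 3.12, SE 0.38, adjusted p = 3.05e-05). Igfbp2 was at 10.3 and 7.64 FPKM in p53WT_G2 and at 38.3 and 8.90 FPKM in p53KO_G2. Replicate 1 of p53KO_G2 thus had the highest G2 value, near the level of 3dai cells. The log2 difference was 2.81 (SE 0.61, adjusted p = 0.00317) in p53WT and 3.83 (SE 0.61, adjusted p = 0.000304) in p53KO.

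Igfbp4 was at 45.9 and 47.6 FPKM in p53WT_G2, below all 3 p53WT libraries, with a 2.06-fold lower mean FPKM (log2 difference -1.02, SE 0.27, adjusted p = 0.0106). In p53KO_G2 it was at 93.0 and 61.4 FPKM, a range that overlaps that of p53KO, and the difference did not pass (log2 difference -0.38, adjusted p = 0.312). Without replicate 1 or replicate 2 of p53WT_G2 the Igfbp4 call in p53WT was lost (adjusted p = 0.0691 and 0.0666). Igfbp6 was at 71.9 and 70.2 FPKM in p53WT_G2 and at 84.8 and 23.8 FPKM in p53KO_G2. All 4 values lay below every library without a suffix of their genotype. Its log2 difference was -1.19 (SE 0.56, adjusted p = 0.126) in p53WT, not called, and -1.73 (SE 0.56, adjusted p = 0.0280) in p53KO. Leaving out p53KO replicate 1, p53KO replicate 2 or p53KO_G2 replicate 2 ended the latter call (adjusted p = 0.0833, 0.0502 and 0.349), as did using no filter (adjusted p = 0.0572). In p53WT Igfbp6 was called lower in a fit of only the 2 groups (adjusted p = 0.00524) and with median-of-ratios scaling (adjusted p = 0.0383).

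Igf1 was at 1.42 and 2.59 FPKM in p53WT_G2 and at 2.19 and 2.28 FPKM in p53KO_G2. These 4 values lay below every library without a suffix. The log2 difference was -1.32 (SE 0.53, adjusted p = 0.0760) in p53WT, not called, and -1.47 (SE 0.53, adjusted p = 0.0477) in p53KO. The call in p53KO was lost without p53KO replicate 1 or 3 or either p53KO_G2 replicate (adjusted p = 0.0765 to 0.170), with a pseudocount of 0.1 (adjusted p = 0.264), with no filter (0.0748), with array weights (0.152) and in a fit of only the 2 groups (0.0814). In p53WT Igf1 was called lower in a fit of only the 2 groups (adjusted p = 0.0266), with median-of-ratios scaling (0.0308) and with quantile normalization (0.0155).

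Igfbp5 and Igfbp7 were not called in G2 cells. Igfbp5 was at 136 and 149 FPKM in p53WT_G2 and at 109 and 157 FPKM in p53KO_G2, with log2 differences of 0.00 (95% interval -0.54 to 0.55) and -0.42 (95% interval -0.96 to 0.12). Igfbp7 was at 167 and 218 FPKM in p53WT_G2 and at 136 and 138 FPKM in p53KO_G2, with log2 differences of -0.08 (95% interval -1.09 to 0.93) and -0.50 (95% interval -1.51 to 0.51). With median-of-ratios scaling Igfbp5 was called lower in p53KO (log2 difference -0.85, adjusted p = 0.0250), as was Igfbp4 (log2 difference -0.81, adjusted p = 0.0339). Pericyte and smooth muscle markers summed to 639 and 744 FPKM in p53WT_G2 and to 350 and 614 FPKM in p53KO_G2, and fibro-adipogenic ones to 1071 to 1216 FPKM in the 4 libraries. Both sums lay near or within the ranges without a suffix, but genes within the fibro-adipogenic list went opposite ways, with Dcn at 69.1 to 178 FPKM against 340 to 625 FPKM and Col1a2 at 365 to 448 FPKM against 107 to 212 FPKM. The 6 muscle fibre markers summed to 247 to 901 FPKM in G2 against 18.5 to 82.6 FPKM without a suffix. Sums were lower in G2 for Schwann cell markers (124 to 138 against 337 to 445 FPKM), muscle stem cell markers (813 to 1121 against 1918 to 2713 FPKM) and endothelial markers (4.76 to 12.5 against 17.5 to 27.1 FPKM). Within these lists Ngfr (15.0 to 27.6 against 2.05 to 5.19 FPKM) and Itga7 (173 to 317 against 81.1 to 92.3 FPKM) were higher in G2. Tenocyte markers summed to 464 and 543 FPKM in p53WT_G2, above the 224 to 442 FPKM of p53WT, and to 230.3 and 234 FPKM in p53KO_G2. Macrophage markers summed to 2.52 to 14.6 FPKM in G2. The part of these cells in the members' values was not tested.

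Setting G2 beside 3dai cells, Igfbp4, Igfbp5, Igfbp6 and Igfbp7 were higher in G2 in both genotypes. In p53WT 6 members were called, 5 higher and 1 lower, where 20.6% of genes were called (13.9% higher and 6.70% lower). In p53KO 4 were called, all higher, where 23.2% of genes were called (16.1% higher and 7.10% lower). With quantile normalization the split of all genes was 10.7% higher with 8.61% lower for p53WT, and 11.3% with 9.61% for p53KO. All 7 members were without overlap in p53WT (5 higher and 2 lower) and 4 in p53KO (all higher), beside 53.8% of all genes in p53WT (30.3% wholly higher and 23.5% wholly lower) and 48.9% in p53KO (28.6% and 20.2%). This comparison uses the libraries already described and shares them with the ones above.

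Igfbp7 had the largest difference, with an 11.3-fold higher mean FPKM in p53WT_G2 than in p53WT_3dai (log2 difference 3.43, SE 0.47, adjusted p = 0.000161) and a 15.6-fold higher one in p53KO_G2 than in p53KO_3dai (log2 difference 4.12, SE 0.47, adjusted p = 4.17e-05). Without p53KO_3dai replicate 1 the latter was 33.1-fold. Igfbp4 was 6.96-fold higher in p53WT (log2 difference 2.63, SE 0.27, adjusted p = 1.55e-05) and 9.61-fold higher in p53KO (log2 difference 3.11, SE 0.27, adjusted p = 5.44e-06). Igfbp5 was 2.51-fold higher in p53WT (adjusted p = 0.00208) and 2.65-fold higher in p53KO (adjusted p = 0.00142). Igfbp6 had log2 differences of 2.03 (adjusted p = 0.0175) and 2.53 (adjusted p = 0.00454), the former lost without p53WT_3dai replicate 2 or either p53WT_G2 replicate and the latter without p53KO_G2 replicate 1 (adjusted p = 0.0846) and in a fit of only the 2 groups (adjusted p = 0.0669).

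The genes that are high in 3dai cells did not behave alike against G2. Igfbp3 was not called, with log2 differences of -0.45 (95% interval -1.27 to 0.36) in p53WT and -0.20 (95% interval -1.02 to 0.62) in p53KO. Igfbp2 was 5.08-fold lower in p53WT_G2 than in p53WT_3dai (log2 difference -2.17, SE 0.61, adjusted p = 0.0206) and not called in p53KO (log2 difference -0.76, adjusted p = 0.396). The p53WT call of Igfbp2 was lost without p53WT_3dai replicate 1 or 3 or either p53WT_G2 replicate (adjusted p = 0.0558 to 0.140) and with a pseudocount of 0.1 (adjusted p = 0.200). Igf1 was called higher in p53WT_G2 (log2 difference 1.55, SE 0.53, adjusted p = 0.0495), against a group with 2 of 3 libraries listed at 0, and that call was lost on leaving out any 1 of the 5 libraries (adjusted p = 0.0936 to 0.275), with no filter (0.0772), with quantile normalization (0.292) and with median-of-ratios scaling (0.0693). In p53KO it was not called (log2 difference 1.11, adjusted p = 0.142).

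Does the p53 genotype change these transcripts? Trp53 itself was called lower in p53KO in all 3 genotype comparisons (log2 differences -2.37, -1.80 and -1.78). No member was called between genotypes. With limma 0 of 7 were called without a suffix, where 0.00772% of genes were called, 0 of 7 in 3dai, where 0.0849% were called (0.00772% higher and 0.0772% lower), and 0 of 7 in G2, where 0.0695% were called (0.0309% higher and 0.0386% lower). At an unadjusted p under 0.05 the counts were 0, 2 and 1 of 7, beside 3.95%, 8.89% and 4.87% of all genes. The difference of the genotype effect between 3dai and no suffix was called for 0 members and 0.00% of genes, and that between G2 and no suffix for 0 members and 0.0232% of genes, with 0 members at an unadjusted p under 0.05 in both.

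Igfbp6 and Igfbp7 were the 2 genes at an unadjusted p under 0.05 in 3dai, with log2 differences of -1.15 (SE 0.50, adjusted p = 0.500) and -1.16 (SE 0.42, adjusted p = 0.388). In p53KO_3dai replicate 1 Igfbp6 was at 19.6 and Igfbp7 at 18.2 FPKM, within the p53WT_3dai ranges of 13.9 to 20.8 and 14.9 to 21.0 FPKM, while replicates 2 and 3 lay at 5.55 and 2.79 and at 4.63 and 3.68 FPKM, below both ranges. Without replicate 1 both genes were called lower, Igfbp6 with a log2 difference of -1.83 (adjusted p = 0.0196) and Igfbp7 with -1.79 (adjusted p = 0.00395), in a fit that called 514 genes (3.98% of those tested) against 11 with all libraries. Replicate 1 alone in its group gave differences of 0.22 and 0.11. Weighting the libraries by their scatter (array weights) also called both, at -1.57 (adjusted p = 0.0235) and -1.66 (adjusted p = 0.00840), and raised the calls over all genes from 11 to 804 (6.21%). The statement about these 2 genes thus rests on p53KO_3dai replicate 1.

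Replicate 1 of p53KO_3dai also stood above the other 2 libraries in some marker sums. Schwann cell markers summed to 62.9 FPKM in replicate 1 and to 12.1 and 4.58 FPKM in replicates 2 and 3, pericyte and smooth muscle markers to 53.6, 26.0 and 19.6 FPKM, and tenocyte markers to 73.1, 37.6 and 36.0 FPKM. In p53WT_3dai the ranges were 35.0 to 55.2, 24.7 to 42.0 and 38.7 to 85.8 FPKM. Fibro-adipogenic markers summed to 256, 226 and 216 FPKM in the 3 p53KO_3dai libraries, all above the 198 to 213 FPKM of p53WT_3dai. Part of these sums is the sort gene Cd34, at 77.1, 44.4 and 61.1 FPKM against 42.7 to 61.6 FPKM in p53WT_3dai. Genes within the fibro-adipogenic list went opposite ways. Dcn was at 43.1, 23.6 and 23.2 FPKM against 27.2 to 38.0 FPKM in p53WT_3dai, and Col1a2 at 53.4, 76.5 and 77.6 FPKM against 45.9 to 68.2 FPKM. Macrophage markers summed to 2.02, 6.76 and 8.18 FPKM, lowest in replicate 1, with Cd68 at 0, 6.31 and 8.18 FPKM but Lyz2 at 2.02, 0.0654 and 0 FPKM. Sums of muscle stem cell (619, 514 and 526 FPKM), muscle fibre (36.5, 24.6 and 29.4 FPKM) and endothelial markers (1.82, 0.281 and 1.16 FPKM) were also highest in replicate 1. Within the stem cell list Pax7 (5.22, 10.5 and 10.8 FPKM) and Itga7 (181, 226 and 216 FPKM) were lowest there. Myf5, Chodl, Sdc4, Vcam1 and Cd34 were highest there. In the fibre list Tnnt3 was lowest in replicate 1 (4.21, 12.8 and 13.2 FPKM) and Acta1 highest (31.3, 9.87 and 15.2 FPKM). The part of the cell types of these lists in the difference of Igfbp6 and Igfbp7 was not tested. Igfbp4, which fell together with them in 3dai cells, did not show the split, at 9.53, 5.87 and 8.71 FPKM.

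**Figure D4:**
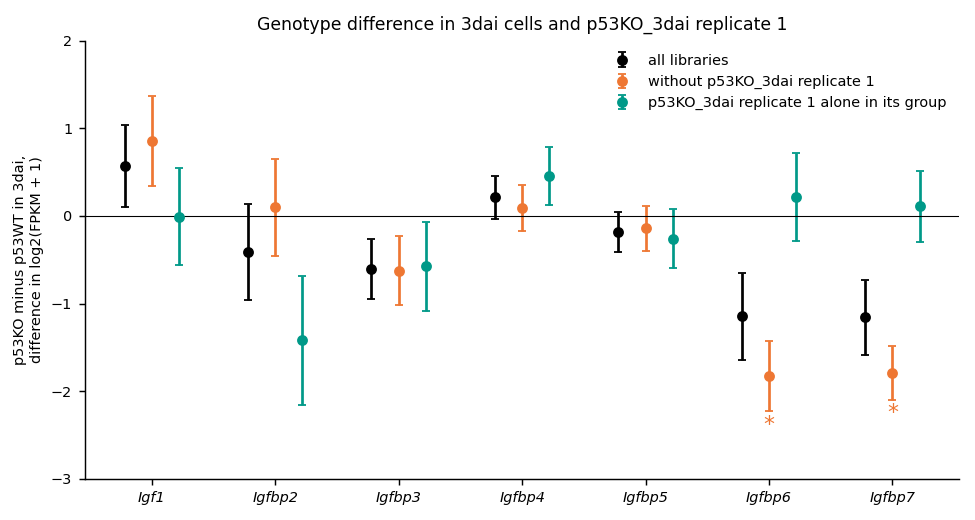
Difference p53KO minus p53WT in 3dai cells on the log2(FPKM + 1) scale, with SE, for each gene with all libraries (black), without p53KO_3dai replicate 1 (orange) and with that replicate alone in its group (green). Stars mark an adjusted p below 0.05, reached only by Igfbp6 and Igfbp7 without replicate 1.

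The other members were not called between genotypes either. Igfbp3 was lower in p53KO in mean FPKM under all 3 suffixes, at 2.67 ± 1.70 against 4.91 ± 2.66 without a suffix, 33.0 ± 4.37 against 50.8 ± 7.36 in 3dai (SD, n = 3) and 28.5 ± 3.43 against 36.6 ± 1.87 in G2 (SD, n = 2). The groups did not overlap in 3dai and in G2, and the log2 differences were -0.71 (95% interval -1.44 to 0.02), -0.61 (95% interval -1.34 to 0.12) and -0.35 (95% interval -1.25 to 0.54). In 3dai Igfbp3 was the only member without overlap, beside 12.0% of all genes (5.07% wholly higher and 6.91% wholly lower). In G2 Igfbp3, Igfbp4 and Igfbp7 did not overlap, beside 31.2% of all genes (15.0% wholly higher and 16.1% wholly lower). Without a suffix all 7 members overlapped, while 6.73% of all genes did not (3.99% wholly higher and 2.74% wholly lower). Igfbp4 was higher in p53KO_G2, at 93.0 and 61.4 against 45.9 and 47.6 FPKM, with a log2 difference of 0.68 (SE 0.29, unadjusted p = 0.0345, limma adjusted p = 1.00). Igfbp2 in G2 had a wide interval, with a log2 difference of 0.99 (95% interval -0.43 to 2.42). Igf1 without a suffix had a log2 difference of 0.28 (95% interval -0.72 to 1.29), with p53KO replicate 3 at 16.1 FPKM over all others, and Igfbp5 had 0.30 (95% interval -0.19 to 0.78).

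The list of other IGF pathway genes held 40 genes, of which 35 were tested. Of these 0 were called between genotypes under any suffix. Between 3dai and unsuffixed cells, 9 were called higher in 3dai and 8 lower in p53WT, and 10 higher and 11 lower in p53KO, with median differences of -0.02 and -0.07. In G2 against no suffix 11 were higher and 1 lower in p53WT and 10 higher and 2 lower in p53KO, with medians of 0.52 and 0.38. In G2 against 3dai 8 were higher and 1 lower in p53WT and 9 higher and 0 lower in p53KO, with medians of 0.36 and 0.42, beside 0.09 and 0.12 over all genes. The shares of all genes called and the other medians of all genes are those given above.

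Igf2, the other IGF ligand and an imprinted fetal growth factor, was the ligand with more transcript. It was at 34.0, 45.5 and 39.2 FPKM in p53WT and at 34.8, 39.4 and 48.6 FPKM in p53KO. In p53WT_3dai it was at 7.39, 4.60 and 7.03 FPKM, and in p53KO_3dai at 5.90, 3.55 and 3.17 FPKM. In G2 it was at 116 and 120 FPKM (p53WT_G2) and 67.9 and 134 FPKM (p53KO_G2). G2 libraries were thus highest and 3dai libraries lowest, without overlap. The log2 difference of 3dai from no suffix was -2.48 in p53WT (adjusted p = 2.10e-06) and -3.03 in p53KO (adjusted p = 2.67e-07), that of G2 from no suffix 1.56 (adjusted p = 0.00140) and 1.22 (adjusted p = 0.00711), and that of G2 from 3dai 4.04 (adjusted p = 9.15e-07) and 4.25 (adjusted p = 1.71e-06). Igf1 and Igf2 were both low in 3dai cells, but in G2 cells Igf1 lay below and Igf2 above the values without a suffix.

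Among receptors, Igf1r, which transmits the IGF signal, ranged from 4.77 to 12.1 FPKM over the 16 libraries. It was called lower in 3dai in p53KO (log2 difference -0.75, adjusted p = 0.0271) and was not called in p53WT. Igf2r, which takes IGF2 up for degradation, was at 30.5 ± 7.44 FPKM in p53WT and 8.70 ± 2.03 FPKM in p53WT_3dai (SD, n = 3), and at 44.1 ± 4.51 FPKM in p53WT_G2 (SD, n = 2). Its 3dai difference was called in p53WT (log2 difference -1.69, adjusted p = 3.16e-05) and in p53KO (log2 difference -1.50, adjusted p = 9.62e-05). Insr, the insulin receptor, stayed between 1.66 and 5.24 FPKM and was called in no comparison.

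Proteolysis of binding proteins is run by a few secreted proteins. Pappa, the protease that cuts Igfbp4 and Igfbp5, was at or below 1.59 FPKM in all libraries, with its highest values in p53WT_G2 (1.59 and 0.881 FPKM). Stc2, a stanniocalcin that inhibits Pappa, rose in 3dai, from 2.82 ± 1.33 to 19.9 ± 9.67 FPKM in p53WT (SD, n = 3; log2 difference 2.37, adjusted p = 0.000566) and from 3.25 ± 0.262 to 10.5 ± 7.21 FPKM in p53KO (SD, n = 3; log2 difference 1.24, adjusted p = 0.0370). Stc1, the other stanniocalcin, was at or below 1.62 FPKM. Htra1, a serine protease that can cut Igfbp5, fell in 3dai in both genotypes (log2 difference -2.50, adjusted p = 5.63e-06 in p53WT, and -2.59, adjusted p = 3.83e-06 in p53KO) and was higher in G2 than in 3dai (log2 difference 2.44 in p53WT and 2.45 in p53KO).

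Inside the cell, the adaptor Irs2 had the largest fall of the list in 3dai, from 57.4 ± 16.8 to 5.80 ± 2.29 FPKM in p53WT (SD, n = 3; log2 difference -3.12, adjusted p = 1.80e-06) and with a log2 difference of -3.60 in p53KO (adjusted p = 4.15e-07). Pik3cb, a catalytic PI3K subunit, was among the largest rises in both genotypes (log2 difference 2.26 in p53WT and 2.41 in p53KO), and Akt1 rose in p53WT (log2 difference 1.33, adjusted p = 1.03e-05) and from 59.5 ± 3.40 to 167 ± 6.77 FPKM in p53KO (SD, n = 3; log2 difference 1.48, adjusted p = 3.66e-06). Irs1, the other main adaptor, rose in p53KO_3dai (log2 difference 1.31, adjusted p = 0.0152) and Fbxo32, a ubiquitin ligase of muscle atrophy, in p53WT_3dai (log2 difference 2.05, adjusted p = 0.000727). Foxo1, a transcription factor that Akt holds out of the nucleus, fell in p53KO_3dai (log2 difference -2.86, adjusted p = 2.93e-06) and in p53WT_3dai (-1.65, adjusted p = 0.000507). In G2 the largest rise over no suffix was that of Trim63, the other atrophy ligase, with log2 differences of 2.79 in p53WT and 2.85 in p53KO (adjusted p = 0.000930 and 0.000762), from at most 0.610 FPKM to 3.72 to 12.9 FPKM. Akt2 fell in G2 in both genotypes (log2 differences -0.79 and -0.84), and Irs2 in p53KO (log2 difference -2.03, adjusted p = 0.000955). Eif4ebp1, a translation repressor under mTOR, was the 1 gene lower in G2 than in 3dai in p53WT (log2 difference -0.94, adjusted p = 0.0469).

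**Figure D5:**
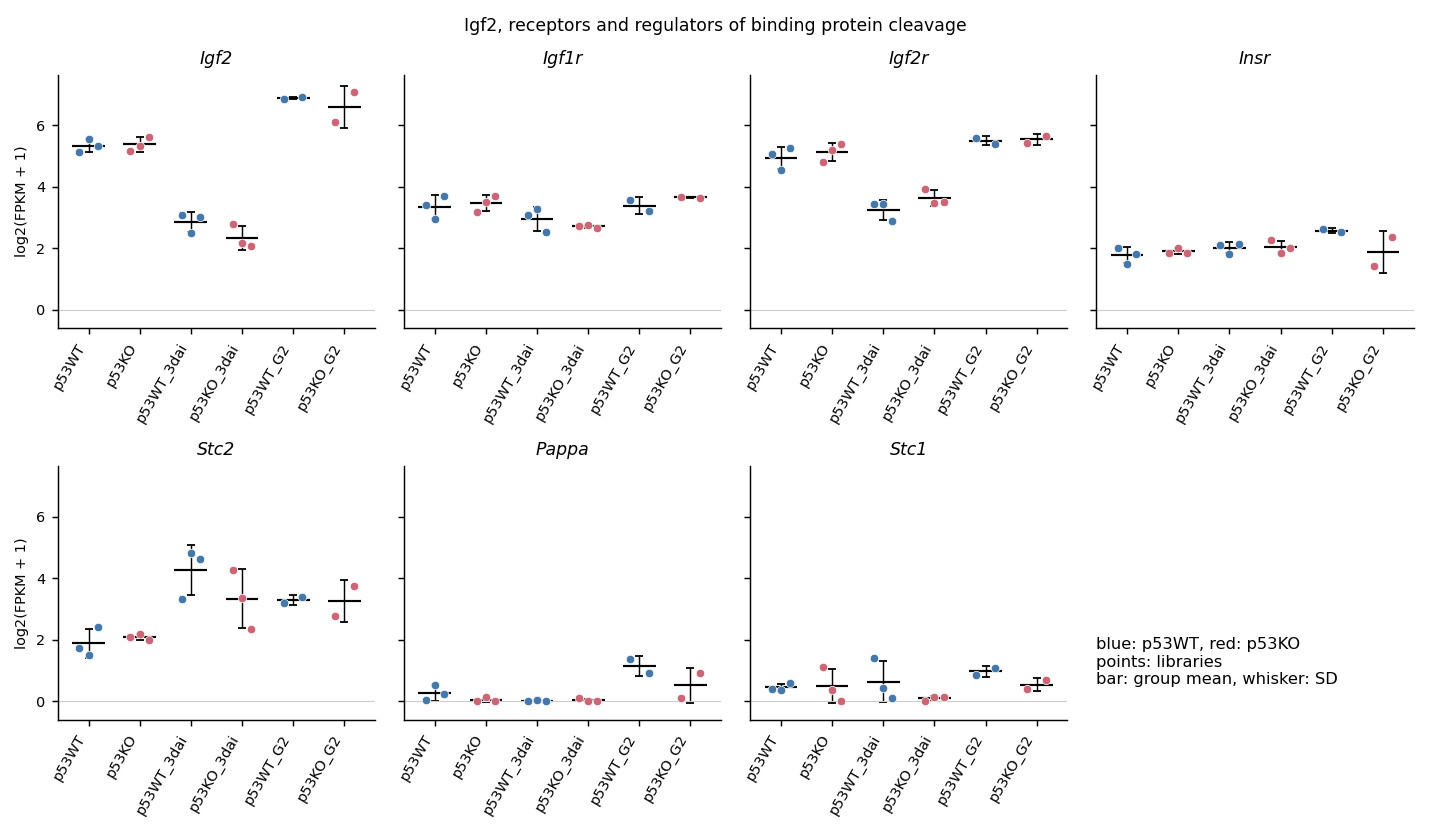
Level of Igf2, the receptors Igf1r, Igf2r and Insr and the genes Stc2, Pappa and Stc1 as log2(FPKM + 1) in the 6 groups. Points are libraries (blue p53WT, red p53KO), bars are means and whiskers are SD. Igf2 is lowest in 3dai (3.17 to 7.39 FPKM) and highest in G2 (67.9 to 134 FPKM).

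The members fell into 2 sets by their values over the 16 libraries. Pearson correlations of log2(FPKM + 1) were 0.74 to 0.93 among Igf1, Igfbp4, Igfbp5, Igfbp6 and Igfbp7 and 0.91 between Igfbp2 and Igfbp3, and those across the sets were between -0.61 and -0.86. Libraries of a group share their muscle, suffix and genotype, so that these values mostly restate the group differences.

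Among 9529 other genes, those most like Igf1 over the 16 libraries were Spry1, an inhibitor of receptor tyrosine kinase signalling, Rab20 and Nr4a1 (Pearson r of 0.95, 0.95 and 0.95). For Igfbp2 they were Psma4, a proteasome subunit, Atp5f1, a subunit of ATP synthase, and Hmgb3 (0.98 each), and for Igfbp3 Mrpl38, Uqcrq and Mex3b (0.97 each). Igfbp4 was most like Lynx1 (0.99), Ppp1r14a and Sbspon (0.98 each), and Igfbp5 most like Fibin, Dnajb4 (0.98 each) and Man2a2 (0.97). Igfbp6 went with Selk, Rgmb and Dnajb9 (0.97 each), and Igfbp7 with Sparcl1, Plat and Timp3 (0.98 each). With median-of-ratios scaling all 3 names stayed for Igfbp7, and 1 of 3 for each of Igf1, Igfbp5 and Igfbp6. Within groups, as deviations from the group means, these correlations were lower, from 0.39 for Igfbp4 with Ppp1r14a to 0.87 for Igfbp5 with Man2a2.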

How the data were processed

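RNA of 16 libraries of sorted mouse muscle cells was measured. The kit was NEBNext Ultra II Directional on total RNA, per the labels' protocols. The submitters' processing notes name STAR, Cufflinks, Cuffdiff and mm10, without versions. The authors deposited 1 FPKM value for each of 24341 genes per library. Depth cannot be had from them, so no counting interval is given.

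The fit used log2(FPKM + 1), with a filter of 1 FPKM in 2 libraries, which 12954 genes passed. limma 3.58.1 under R 4.3.3 fitted the 6 groups in 1 model with a mean-variance trend. P-values were adjusted by Benjamini-Hochberg over all 12954 genes, with 0.05 as the limit. The difference of a genotype effect is an interaction in the same model. On simulated data with 200 of 12954 genes changed, 87.5% of 4-fold and 35.0% of 2-fold changes were recovered for p53KO against p53WT in 3dai. In G2 it was 76.0% and 13.0%. The changed genes were drawn from those whose mean log2(FPKM + 1) stood for more than 5 FPKM, which leaves out Igf1. Before the change each gene had 1 common mean in all groups, with normal noise. Figures were drawn with matplotlib 3.10.9.

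The members, gene lists, markers and tests were chosen with earlier results of these data known. Named are the 7 members, up to 3 largest called rises and falls of the pathway list per comparison, Igf2, Igf1r, Igf2r, Insr, Pappa, Stc1 and Stc2, the 3 genes most like each member, Trp53 and the genes of the sort. A pathway gene named for 1 genotype is also given for the other where it was called. Likeness is Pearson's r over 16 libraries, among tested genes with a group mean of at least 5 FPKM. Alternatives were another pseudocount, filter, normalization, weighting or model, a block for the replicate number, and fits that drop 1 library each. Promoter sequences come from RefSeq (GRCm38.p6), and strands, exons and overlaps from GENCODE M21.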

Additional observations from a re-analysis of the deposited data

How the results depend on the processing

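In 3dai against no suffix each member kept its call and direction in both genotypes under every alternative in which it was tested. With a filter of a mean of at least 5 FPKM Igf1 was not tested, and the other 6 were called. Other counts of called members moved. In p53KO against p53WT in 3dai, 2 were called with array weights (6.21% of all genes) and 0 to 2 on leaving out 1 library. The count of 2 came without p53KO_3dai replicate 1 (3.98% of all genes). In G2 against no suffix in p53WT, 5 were called with median-of-ratios scaling (24.4% of all genes) and 5 with only the groups compared (30.1%). In p53KO, 2 were called with no filter (22.5% of all genes) and 2 to 4 on leaving out 1 library. The count of 2 came without p53KO replicate 1 (25.4%) or p53KO_G2 replicate 2 (24.3%). In G2 against 3dai in p53WT, 3 to 4 were called on leaving out 1 library. The count of 3 came without p53WT_G2 replicate 1 or 2, where 10.6% and 9.63% of all genes were called, beside 20.6% with all libraries. The cause was not tested. Deviations of same-numbered libraries from their group means had correlations from -0.16 to 0.13. Differently numbered libraries were not compared, so these values cannot decide whether replicate numbers pair the libraries. With the replicate block Igf1 lost its call in G2 against no suffix in p53KO (log2 difference -1.44, adjusted p = 0.0775) and in G2 against 3dai in p53WT (1.57, adjusted p = 0.0742), and no other member call changed.

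Signs turned only for differences that were not called. Between genotypes without a suffix, array weights gave -0.055 for Igf1, 0.29 for Igfbp2, -0.11 for Igfbp4, 0.074 for Igfbp6 and 0.22 for Igfbp7, and quantile normalization 0.033 for Igfbp7. Leaving out 1 library gave -0.19 to 0.69, -0.50 to 0.21, -0.19 to 0.21, -0.30 to 0.042 and -0.31 to 0.28 for these 5 genes. In 3dai, p53KO_3dai replicate 1 alone, an alternative chosen after seeing the data, gave -0.011 for Igf1, 0.22 for Igfbp6 and 0.11 for Igfbp7, array weights gave 0.077 for Igfbp2, and leaving out 1 library -0.011 to 0.86 for Igf1 and -0.72 to 0.10 for Igfbp2. In G2, leaving out 1 library gave -0.15 to 0.42 for Igf1, -0.39 to 0.14 for Igfbp5 and -1.54 to 0.25 for Igfbp6.

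In G2 against no suffix in p53WT, Igfbp5 was at -0.046 with quantile normalization, -0.43 with median-of-ratios scaling, -0.048 without small RNA and mitochondrial names and -0.015 with array weights, and at -0.10 to 0.13 on leaving out 1 library, and Igfbp7 at 0.0097 with array weights and -0.27 to 0.25. In G2 against 3dai in p53KO, Igfbp2 was at 0.25 with p53KO_3dai replicate 1 alone and at -1.76 to 0.23 on leaving out 1 library. For the difference of the genotype effect in 3dai, replicate 1 alone gave -0.29 for Igf1, 0.32 for Igfbp6 and 0.16 for Igfbp7, a pseudocount of 0.1 gave 0.17 for Igfbp2 and array weights -0.20 for Igfbp3, with -0.29 to 0.76 (Igf1), -0.69 to 0.13 (Igfbp2) and -0.30 to 0.43 (Igfbp3) on leaving out 1 library. In G2 it was 0.19 for Igf1 with array weights, and -0.55 to 0.32 (Igf1), -0.048 to 0.69 (Igfbp3) and -1.44 to 0.35 (Igfbp6). A lone library left in a group is assumed to vary like the others. With 2 libraries in each G2 group, simulated 2-fold changes were recovered for 10.5% to 15.0% of genes in the comparisons with G2. Only 200 of 12954 genes were changed there, and the adjusted p depends on how many genes change. Between genotypes in G2, where 0.0695% of genes were called, differences of that size may thus be mostly missed. In G2 against no suffix or 3dai 20.6% to 29.6% of genes were called, so that the simulated shares do not carry over to those comparisons.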
